A study of Rattus norvegicus with 17 samples.

Results

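The choroid plexus epithelium genes described here are Ttr, Kl, Sostdc1, Folr1, Aqp1, Slc4a5, Clic6, Mfrp, Tmem72 and Otx2, 10 of the 34322 genes counted in RNA-seq libraries of rat hippocampus. They were picked by symbol for their levels across these libraries in earlier results, so their levels are given as a description and carry no test. The study asked whether ethanol before birth leaves changes in gene expression in the adolescent hippocampus, and sequenced 1 library from each of 17 Long-Evans rats aged 36 to 38 days. Dams of the ethanol group (ET, n = 5 offspring, 3 males and 2 females) drank a liquid diet with 6.7% ethanol from gestational day 0 to 20. Dams of the pair-fed group (PF, n = 6, 3 males and 3 females) had a liquid diet with no ethanol, and dams of the ad libitum group (AD, n = 6, 3 males and 3 females) had chow. The rats were of purchased stock, and the labels name no allele or transgene. All dams went onto the same chow from day 20, and each diet group was 1 litter, so that p-values below measure the spread between littermates and cannot tell a diet from its litter.

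The choroid plexus is a sheet of cuboidal epithelium over a vascular stroma that hangs in the brain ventricles, secretes the cerebrospinal fluid and guards the border between blood and that fluid. In the lateral ventricle it is attached along the fimbria, next to the hippocampus. Its epithelium is known for very high transthyretin expression, for water, bicarbonate and chloride transport, and for carriers that move hormones and vitamins into the fluid.

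Between 10853947 and 17498392 fragments were counted per library, with a median of 13538433, and levels are given as normalized counts, which are counts scaled by the trimmed mean of M-values (TMM) to the mean library size. They are not divided by gene length, so levels are compared between libraries. Genes are ranked by mean count only to choose or describe those of a list, and such a rank depends on gene length too. The study left 3 libraries out of its final analysis after a principal component analysis, in whose plot it labelled them by animal, and these are ET replicate 2 (male, right hippocampus), PF animal 11f6 (male, left) and AD replicate 4 (female, left). PF animals 11f5 and 11f6 are named by animal because the labels do not tie them to a replicate number. The right hippocampus was also used for PF replicates 1 and 6 and AD replicate 3. In 15 of 17 libraries the sex-linked genes matched the label. The 2 that did not were AD replicate 1, labelled male, and AD replicate 2, labelled female, so the sexes were compared in ET and PF only.

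The 10 genes together made up 0.764% of all counts in ET replicate 2 (95% Wilson interval 0.759 to 0.769), 0.881% in PF animal 11f6 (0.875 to 0.886) and 0.945% in AD replicate 4 (0.939 to 0.950). ET replicate 1 (0.117%, 0.115 to 0.119) and PF replicate 2 (0.126%, 0.125 to 0.128) came next. The lowest share was 0.000689% in AD replicate 1 (0.000563 to 0.000837), and the 3 left-out libraries lay above every other library of their diets. These intervals cover counting error only, and fragments were counted without molecular identifiers. They were computed on counts averaged over 3 technical runs, and are wider than intervals on summed counts would be. In bulk tissue a library with fewer cells of a type and a library with less RNA per cell cannot be told apart.

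Ttr encodes transthyretin, the carrier of thyroxine and retinol that choroid plexus epithelium secretes. In ET its normalized counts were 13793, 87591, 642, 784 and 1885 in replicates 1 to 5. In PF it stood at 100267 in animal 11f6, and the other 5 libraries ran from 278 in animal 11f5 to 14552 in replicate 2 with a median of 919. In AD it stood at 112289 in replicate 4, and the other 5 ran from 36.1 in replicate 1 to 1766 in replicate 5 with a median of 356. Each diet thus had 1 library with far more Ttr than its littermates, while the ranges of the other libraries overlapped between the diets. Over the median of the other libraries of its diet, the left-out library held 65.6-fold more Ttr in ET, 109-fold more in PF and 315-fold more in AD. Without the left-out library, Ttr still spanned 21.5-fold among the ET libraries, 52.4-fold in PF and 48.9-fold in AD.

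Kl encodes klotho, a co-receptor for fibroblast growth factor 23 that is also shed into the cerebrospinal fluid. Its normalized counts in ET replicates 1 to 5 were 289, 2096, 50.9, 47.1 and 83.4. PF animal 11f6 had 2947 against 26.0 to 334 in the other PF libraries (median 57.5), and AD replicate 4 had 2677 against 9.90 to 57.1 (median 26.0). The same libraries as for Ttr were the highest in each diet, and ET replicate 1 and PF replicate 2 again came second. Sostdc1 encodes a secreted antagonist of bone morphogenetic protein and Wnt signals. Its normalized counts in ET were 149, 1301, 9.75, 8.39 and 20.9. PF animal 11f6 had 1348, the other PF libraries 2.92 to 201 (median 13.4), AD replicate 4 had 1264, and the other AD libraries 0.958 to 22.2 (median 5.78). Sostdc1 came near the limit of detection, with 1 count in AD replicate 1 and 3 each in AD replicate 3 and PF animal 11f5. In AD replicate 1, Tmem72 and Otx2 (0.667 counts each, averaged over technical runs) and Clic6 (3 counts) were also at or under the floor of 3 counts.

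Of the transport genes, Aqp1 encodes the water channel of the apical membrane. Its normalized counts in ET replicates 1 to 5 were 197, 1215, 28.0, 28.1 and 51.5. PF animal 11f6 had 1295 against 20.6 to 220.1 in the other PF libraries (median 26.7), and AD replicate 4 had 1466 against 15.3 to 56.0 (median 40.8). No library lay under 15.3, and the low libraries of the 3 diets overlapped. Slc4a5 encodes a sodium bicarbonate cotransporter. It stood at 233, 2230.2, 33.5, 29.4 and 45.1 in ET, at 1957 in PF animal 11f6 against 25.3 to 391 in the other PF libraries (median 45.0), and at 2396 in AD replicate 4. The other AD libraries held 6.07 to 255 of Slc4a5 (median 18.5), where the highest was AD replicate 6 in place of replicate 5.

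Clic6, of the chloride intracellular channel family, stood at 168, 1360.2, 75.0, 46.5 and 52.8 in ET replicates 1 to 5. It stood at 1798 in PF animal 11f6 and 14.9 to 219 in the other PF libraries (median 55.9), and at 1891 in AD replicate 4 and 2.87 to 68.2 in the other AD libraries (median 26.6). Folr1, the folate receptor that carries folate into the cerebrospinal fluid, stood at 137, 846, 50.9, 38.7 and 24.8 in ET. The 3 left-out libraries were nearly level for Folr1, at 846, 843 and 844. The other libraries ran from 15.3 to 112 in PF (median 34.0) and from 15.0 to 40.4 in AD (median 26.3), the narrowest AD range of the 10 genes, at 2.69-fold.

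Mfrp encodes a membrane protein related to the frizzled receptors, and Tmem72 a transmembrane protein. Mfrp stood at 279, 2300.4, 38.1, 29.1 and 46.7 in ET. In PF animal 11f6 it stood at 2747, against 15.3 to 339.9 in the other PF libraries (median 34.0), and in AD replicate 4 at 2650.2, against 5.75 to 53.4 (median 17.7). Tmem72 stood at 85.6, 1174, 11.3, 6.78 and 12.9 in ET. It stood at 1348 in PF animal 11f6 against 5.20 to 185 (median 15.2), and at 1474 in AD replicate 4 against 0.639 to 21.5 (median 7.36). Both genes put the same library first in each diet as Ttr did, and Tmem72 had the largest fold of the 10 genes in ET, at 97.2 over the median of the other ET libraries.

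Otx2, the homeodomain transcription factor that choroid plexus needs to form, was the gene whose order departed most from Ttr in AD. Its normalized counts were 39.8, 272, 32.9, 22.3 and 19.0 in ET replicates 1 to 5. In PF it stood at 358 in animal 11f6 and 4.55 to 49.0 in the others (median 13.6). In AD replicates 1 to 6 it stood at 0.639, 8.33, 27.4, 335, 26.7 and 325. AD thus had a pair of libraries with high Otx2, replicates 4 and 6, only 1 of which was high in Ttr.

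**Figure D1:**
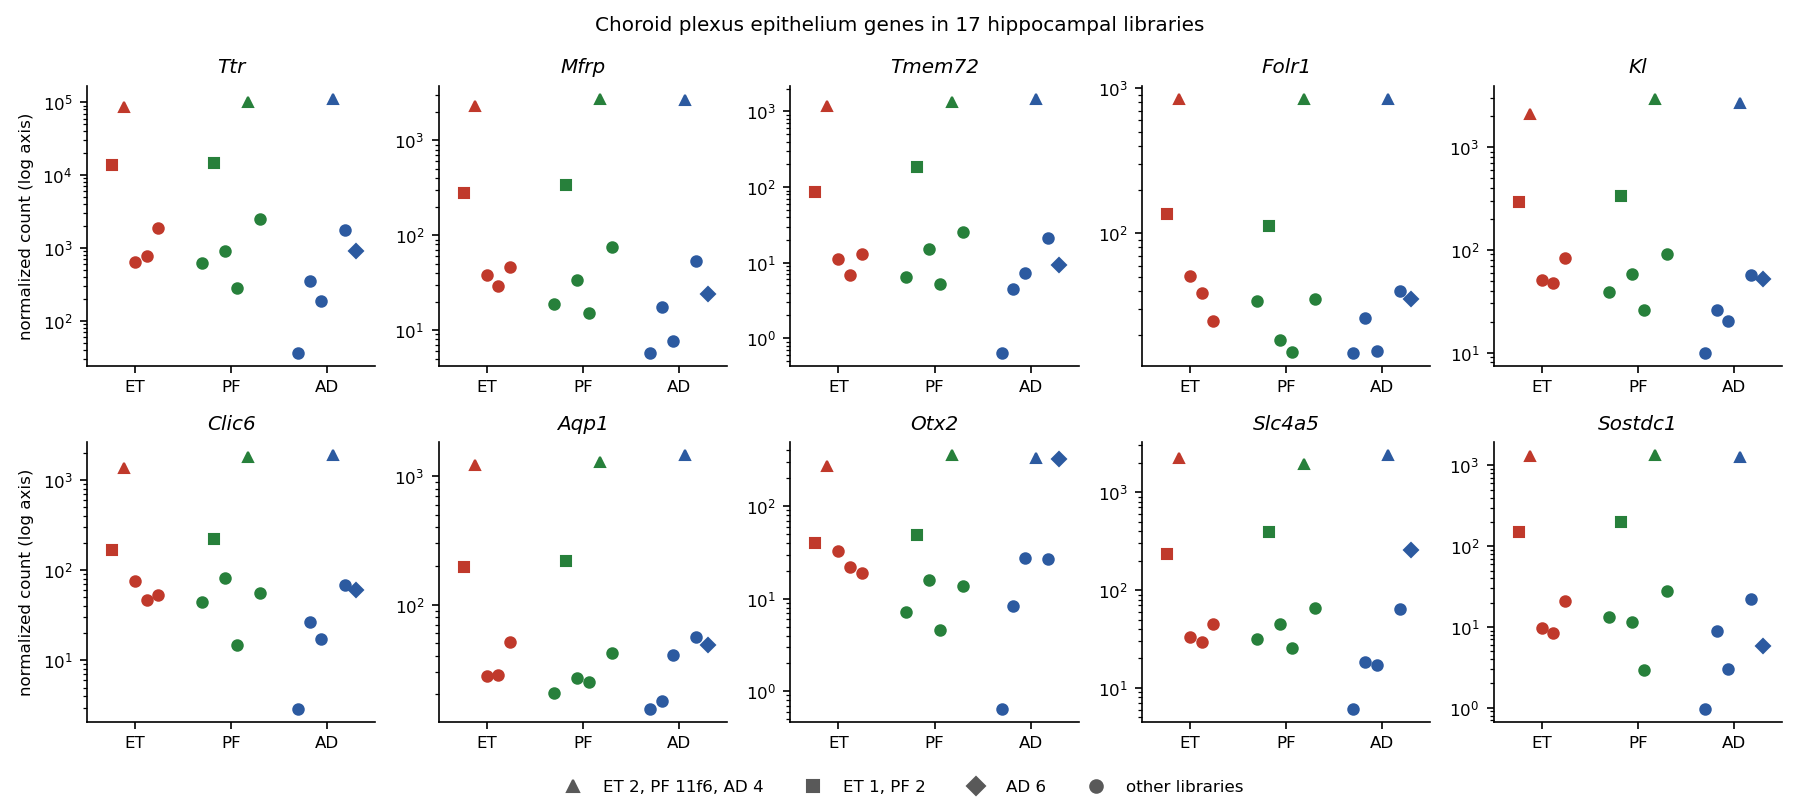
Normalized counts (log axis) of each of the 10 genes in the 5 ET, 6 PF and 6 AD libraries, 1 point per library. The triangles (ET replicate 2, PF animal 11f6 and AD replicate 4) were the highest point of their diet in every panel, the squares (ET replicate 1 and PF replicate 2) were second in ET and PF, and the diamond (AD replicate 6) stands above the other AD circles for Otx2 and Slc4a5.

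The left-out library was the highest of its diet for 10 of 10 genes in each of the 3 diets. Of the 15920 genes with a mean normalized count of at least 10, 870 (5.46%) were highest in the same 3 libraries of their diets. The median fold of the 10 genes in the left-out library was 42.7 in ET (from 9.87 for Otx2 to 97.2 for Tmem72), 49.9 in PF (from 24.8 for Folr1 to 109 for Ttr) and 116 in AD (from 12.5 for Otx2 to 315 for Ttr). At least 10-fold in all 3 diets were 9 of the 10 genes, all but Otx2, and 42 of the 15920. These libraries were also shallow for their diets, with the lowest total count in ET and in PF and the second lowest in AD, and the part of depth in these levels was not tested. Under other scalings the folds changed by 0.978 to 1.05 times.

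The 10 genes put the libraries of a diet in nearly the same order. For each pair of genes the share of library pairs placed in the same order was taken, over 45 gene pairs. The median share was 90% in ET (70 to 100, 10 library pairs), 93.3% in PF (86.7 to 100, 15 library pairs) and 93.3% in AD (73.3 to 100, 15 library pairs). Over all genes, the median share of library pairs in the order of Ttr was 50% in ET, 46.7% in PF and 46.7% in AD. With the left-out library of each diet set aside, the median among the 10 genes was 83.3% in ET (50 to 100), 90% in PF (80 to 100) and 90% in AD (60 to 100). The next library down was then ET replicate 1 for 10 of 10 genes, PF replicate 2 for 10 of 10, and AD replicate 5 for 8 of 10, the exceptions being Otx2 and Slc4a5. At the low end AD replicate 1 was lowest for 10 of 10 genes and PF animal 11f5 for 9 of 10, while ET replicate 3, the lowest for Ttr, was lowest for 2 of 10. These shares rest on 5 or 6 littermates a diet, which share a scaling, and they are a description of these libraries.

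Because both genes of a ratio come from the same library, counts relative to Ttr do not depend on depth or scaling. In the 3 left-out libraries the ratio of each gene stayed within a 1.32-fold range, although the 95% exact intervals of at least a pair of these libraries lay apart for 6 of 9 genes (Mfrp, Folr1, Kl, Clic6, Slc4a5 and Sostdc1). Tmem72 stood at 13.1 to 13.4 counts per 1000 Ttr counts, Aqp1 at 12.9 to 13.9 and both had overlapping intervals. Sostdc1, with the widest range, stood at 14.9 in ET replicate 2 and 11.3 in AD replicate 4 (10.6 to 11.9), and Slc4a5 at 25.5 in ET replicate 2 (24.3 to 26.7) and 19.5 in PF animal 11f6 (18.6 to 20.4). ET replicate 1 and PF replicate 2, with lower levels of every gene, had ratios near those of the 3 libraries, such as 14.3 and 15.1 counts of Aqp1 per 1000 Ttr counts. In ET replicate 1, however, the interval lay wholly under the ratios of the 3 libraries for 5 of 9 genes, while in PF replicate 2 it lay wholly under or above them for 0 of 9. Clic6 stood in ET replicate 1 at 12.2 counts per 1000 Ttr counts (10.4 to 14.2, 95% exact interval) against 15.5 to 17.9 in the 3 libraries, and Slc4a5 at 16.9 against 19.5 to 25.5. Mfrp (20.2 against at least 23.6) and Kl (20.9 against at least 23.8) were the others. The lowest against the 3 libraries was Tmem72, at 6.21 counts per 1000 Ttr counts (4.98 to 7.71), under the 12.7 of PF replicate 2, whose interval did not overlap it and reached 14.7.

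In the other 12 libraries the 9 genes did not keep 1 ratio to Ttr. Folr1, Kl, Clic6, Aqp1 and Otx2 were higher relative to Ttr in 12 of 12 of these libraries than in any of the 3 left-out libraries, Slc4a5 in 11 and Mfrp in 10. Aqp1 had a median of 39.7 and reached 425 counts per 1000 Ttr counts in AD replicate 1 (219 to 773), and Folr1 had a median of 52.2 and reached 416 (219 to 773) in the same library. Tmem72 and Sostdc1 were higher in 5 of 12, with medians of 12.3 and 12.5, and over all 17 libraries Sostdc1 stood between 6.32 and 26.5 and Tmem72 between 6.21 and 39.9 counts per 1000 Ttr counts (the highest of Sostdc1 resting on 1 count in AD replicate 1, 0.649 to 156) while the normalized count of Ttr ranged from 36.1 to 112289. Beside ET replicate 1, the interval of Tmem72 lay outside the ratios of the 3 left-out libraries in ET replicate 5 (6.84, 3.54 to 11.4) and in AD replicate 3 (39.9, 15.1 to 80.0). Folr1 and Aqp1 were less low than Ttr in the lowest libraries. So were Kl (274, 117 to 538), Slc4a5 (168, 54.6 to 376) and Mfrp (159, 54.6 to 376) in AD replicate 1. Clic6, Tmem72, Otx2 and Sostdc1 rest on 3 counts or fewer in that library. Otx2 and Slc4a5 in AD replicate 6 stood apart at 355 (309 to 408) and 279 (239.6 to 325) counts per 1000 Ttr counts. The counts behind the highest Aqp1 and Folr1 ratios are few, 37.7 for Ttr in AD replicate 1, and the intervals, computed on counts averaged over 3 technical runs, cover counting error only.

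**Figure D2:**
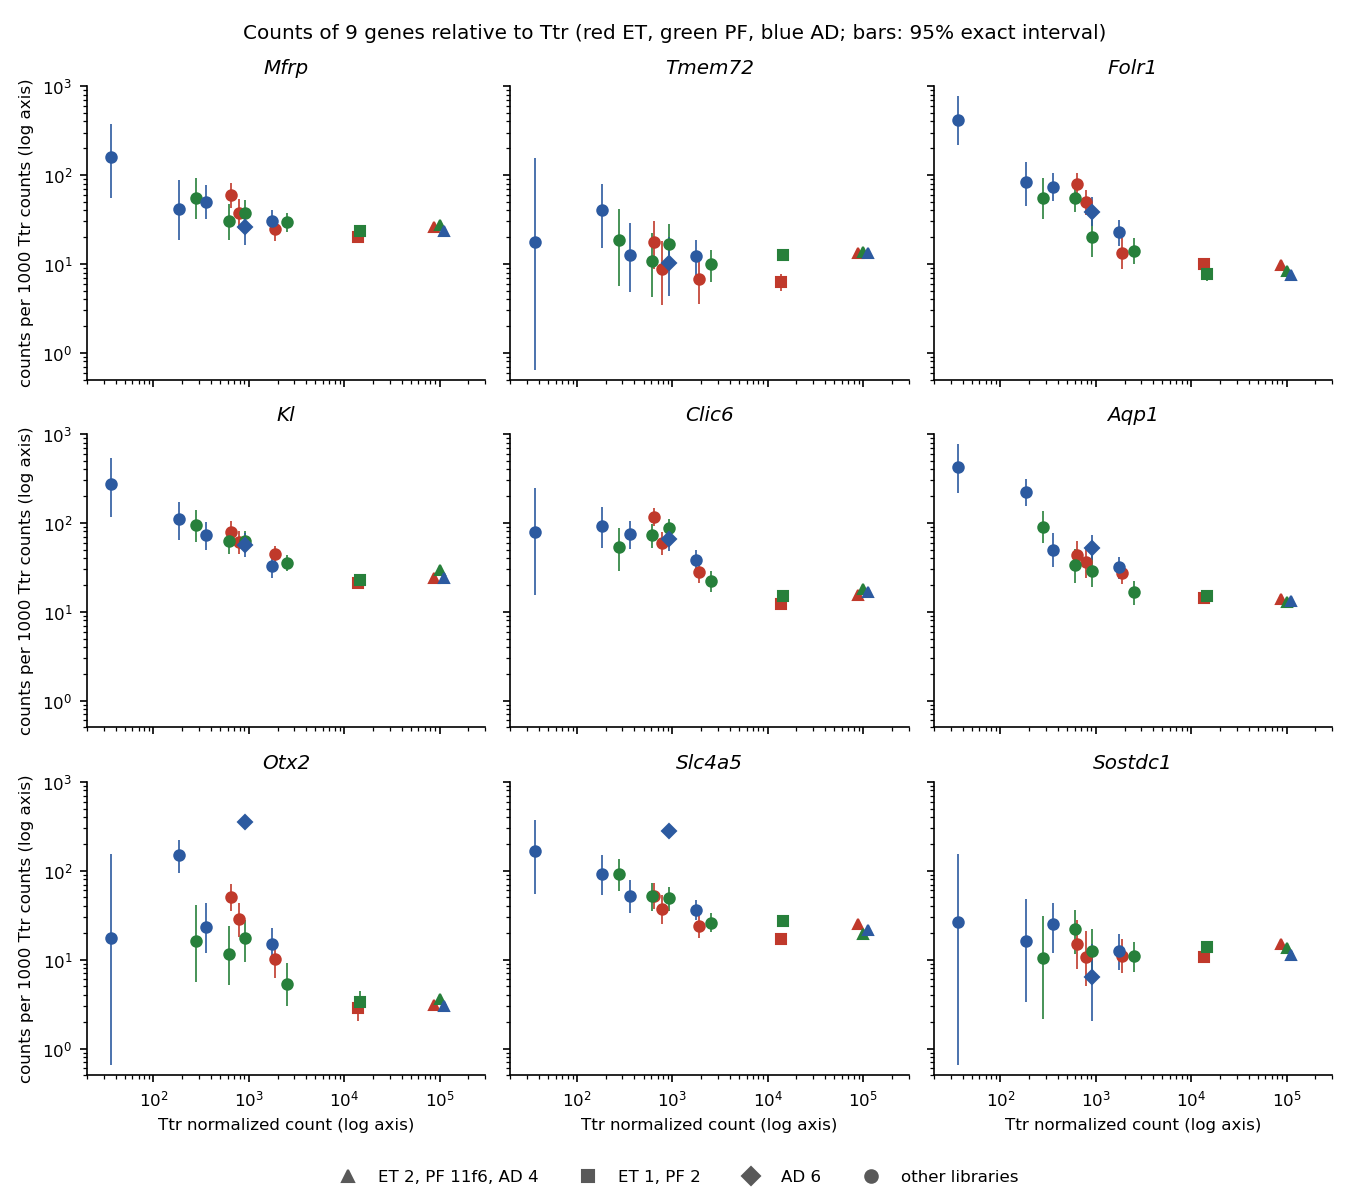
Counts of 9 genes per 1000 Ttr counts (log axis) against the Ttr normalized count (log axis) in 17 libraries, 1 point per library with its 95% exact interval. Points of Sostdc1 lie between 6.32 and 26.5 and those of Tmem72 between 6.21 and 39.9, those of Folr1 and Aqp1 climb towards the left, and AD replicate 6 (diamond) lies high for Otx2 and Slc4a5, at 355 and 279. Ttr enters both axes, so a climb towards the left can come in part from Ttr itself.

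A pineal list was high in AD replicate 6, the library in which Otx2 and Slc4a5 stood apart from the other choroid plexus genes. All 10 of 10 pineal genes were highest there, with a summed normalized count of 15535 against 85.2 to 219 in the other 16 libraries. Tph1, the first enzyme of serotonin synthesis, stood at 12886 in that library against at most 84.0 elsewhere, Rom1, of the photoreceptor outer segment, at 878 against at most 108, Asmt, the last enzyme of melatonin synthesis, at 357 against at most 16.8, and Sag, the retinal arrestin, at 404 against at most 4.68. Crx, Gngt1 and Bsx of the list were at 0 in 10, 10 and 9 of the 17 libraries. Of the other 8 choroid plexus genes, 7 had rank 3 among the 6 AD libraries in replicate 6, and Sostdc1 had rank 4. The part of pineal RNA in the Otx2 and Slc4a5 levels of AD replicate 6 was not tested. Among the 3 left-out libraries the pineal sum was 153 in ET replicate 2, 120 in PF animal 11f6 and 116 in AD replicate 4.

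A list of 42 other choroid plexus epithelium genes was read in the same libraries, and 35 of 42 were highest in the left-out library in all 3 diets, with 11 of 42 at least 10-fold higher in all 3. The median fold over the 42 was 3.58 in ET, 4.55 in PF and 4.57 in AD, beside 0.992, 0.996 and 0.991 over the 15920 genes. Transport genes were highest in all 3 for 11 of 14, tight junction, keratin and other epithelial genes for 9 of 10, secreted proteins and receptors for 12 of 14, and transcription factors for 3 of 4. The 4 most abundant genes of each group are named here. The sodium potassium chloride cotransporter Slc12a2 was 1.40-, 1.26- and 1.21-fold higher in the left-out library of ET, PF and AD, and the anion exchanger Slc4a2 3.08-, 4.51- and 3.72-fold. The carbonic anhydrase Ca12 was 2.52-, 2.73- and 3.98-fold higher, whereas Slc4a10, a bicarbonate transporter that neurons also express, was not highest in all 3 (1.09, 1.08 and 1.30).

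Among the epithelial genes, the tight junction claudin Cldn2 had folds of 62.1, 85.3 and 183. The protease inhibitor Spint2 (2.06, 2.63 and 2.62) and Cab39l (2.75, 2.89 and 3.02) had smaller ones, and the desmosomal gene Perp was not highest in all 3 (1.32, 1.24 and 1.63). Among secreted proteins and receptors, Enpp2, which encodes autotaxin, stood at 25931 in AD replicate 4 against 2744 to 3578 in the other AD libraries, with folds of 7.72, 9.01 and 7.44. The growth factor Igf2 (3.14, 3.84 and 2.71), its binding protein gene Igfbp2 (3.49, 5.45 and 4.34) and the serotonin receptor Htr2c (3.55, 3.60 and 4.68) were also highest there. Of the transcription regulators, Lmx1a had folds of 13.2, 22.9 and 25.9, Msx1 of 4.71, 6.01 and 6.53, and the ciliary factor Foxj1 of 2.47, 4.58 and 4.46, while Gmnc, a regulator of multiciliated cells, was not highest in ET replicate 2 (1.05, 1.80 and 2.37).

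Lists of neighbouring cell types were read in the same libraries. Of 10 genes of the ciliated ependymal lining, 3 were highest in all 3, and their summed normalized count was 1131 in ET replicate 2 (504 to 1083 in the other ET libraries), 1348 in PF animal 11f6 (446 to 755) and 1087 in AD replicate 4 (460.3 to 767). Its most abundant genes were Rarres2, with folds of 1.20, 1.04 and 0.914, the axonemal genes Hydin (2.42, 3.09 and 2.96) and Dnah12 (1.96, 3.96 and 3.47), and Tekt1 (1.86, 3.11 and 2.59), and Sntn was at 0 in 6 libraries. The ependymal sum of the left-out library thus lay above every other library of its diet in all 3 diets, and the part of ependymal RNA in the levels of the 10 genes was not tested.

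Of 10 stromal and meningeal genes 2 were highest in all 3 libraries, and their sum was 7169 in ET replicate 2 (2419.8 to 4444 in the others), 3370.4 in PF animal 11f6 (2298 to 4087) and 2613 in AD replicate 4 (2964 to 5149). The collagen genes Col1a1 (1.84, 1.05 and 0.562), Col1a2 (1.90, 0.948 and 0.517) and Col3a1 (2.20, 1.00 and 0.618) and the proteoglycan Ogn (2.77, 1.71 and 1.20) were high in ET replicate 2, and the collagens were low in AD replicate 4. Of 8 endothelial genes 1 was highest in all 3, Plvap of fenestrated vessels, at 4.37-, 3.98- and 3.06-fold. Esm1, the least abundant gene of the list, stood at 28.2 normalized counts in ET replicate 2 (0.644 to 5.06 in the others), 30.2 in PF animal 11f6 (0.693 to 5.09) and 30.8 in AD replicate 4, where AD replicate 6 was higher at 171. The 4 most abundant endothelial genes were Cldn5 (0.894, 0.950 and 0.842), Flt1 (1.02, 0.945 and 0.916), Slco1a4 (1.04, 0.864 and 0.762) and Slc2a1 (1.02, 0.923 and 0.926). In ET replicate 2 all 4 lay within the range of the other ET libraries. In AD replicate 4 all 4 lay below every other AD library, such as Slco1a4 at 759 against 938 to 1118. In PF animal 11f6 Flt1 and Slco1a4 lay below the other PF libraries, and Cldn5 and Slc2a1 within their range. The endothelial sum was 5816 in ET replicate 2 (4608 to 6039.7 in the others), 5241 in PF animal 11f6 (5183 to 6315) and 4881 in AD replicate 4 (5387 to 6529).

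Of 7 macrophage and blood genes 0 were highest in all 3 libraries, and their sum was 10448 in ET replicate 2 (5645 to 7682 in the others), 7266 in PF animal 11f6 (2623 to 5529) and 4175 in AD replicate 4 (5544 to 8106). The globin gene Hbb (1.67, 1.85 and 0.570), Hba-a2 (1.53, 2.22 and 0.668) and the heme synthesis gene Alas2 (1.57, 2.18 and 0.527) were high in ET and PF and low in AD, and the macrophage gene Mrc1 had folds of 1.25, 0.669 and 0.530. Thalamic and habenular genes were highest in all 3 for 1 of 10, with sums of 3163, 3251 and 1998 against 1870.4 to 3906, 1719 to 2383 and 1799 to 2411 in the others, and Gbx2 at 0 in 6 libraries. Prkcd had folds of 1.49, 3.43 and 0.625, the glutamate transporter Slc17a6 of 1.11, 1.48 and 0.550, Ntng1 of 1.17, 1.20 and 1.17, and Plekhg1 of 0.969, 1.12 and 0.919. The part of stromal, blood, endothelial and thalamic RNA in the levels of the 10 genes was not tested.

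As for the labelled tissue, hippocampal neuron genes were present in all 17 libraries, from a mean normalized count of 63440.3 for Camk2a, which carried most of the sum, to 3.11 for Spink8, near the limit of detection. Their summed normalized count was 79090.3, 68467 and 75878 in the left-out libraries of ET, PF and AD, and 58589.7 to 96784 in the other 14. Of 9 such genes 0 were highest in all 3 libraries, and the median folds were 1.02, 1.01 and 1.03. The kinase gene Camk2a had folds of 0.980, 0.927 and 0.958, Neurod6 of pyramidal cells 1.05, 0.840 and 0.907, Zbtb20 1.08, 1.07 and 1.10, and Wfs1 of field CA1 0.941, 0.529 and 0.675.

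**Figure D3:**
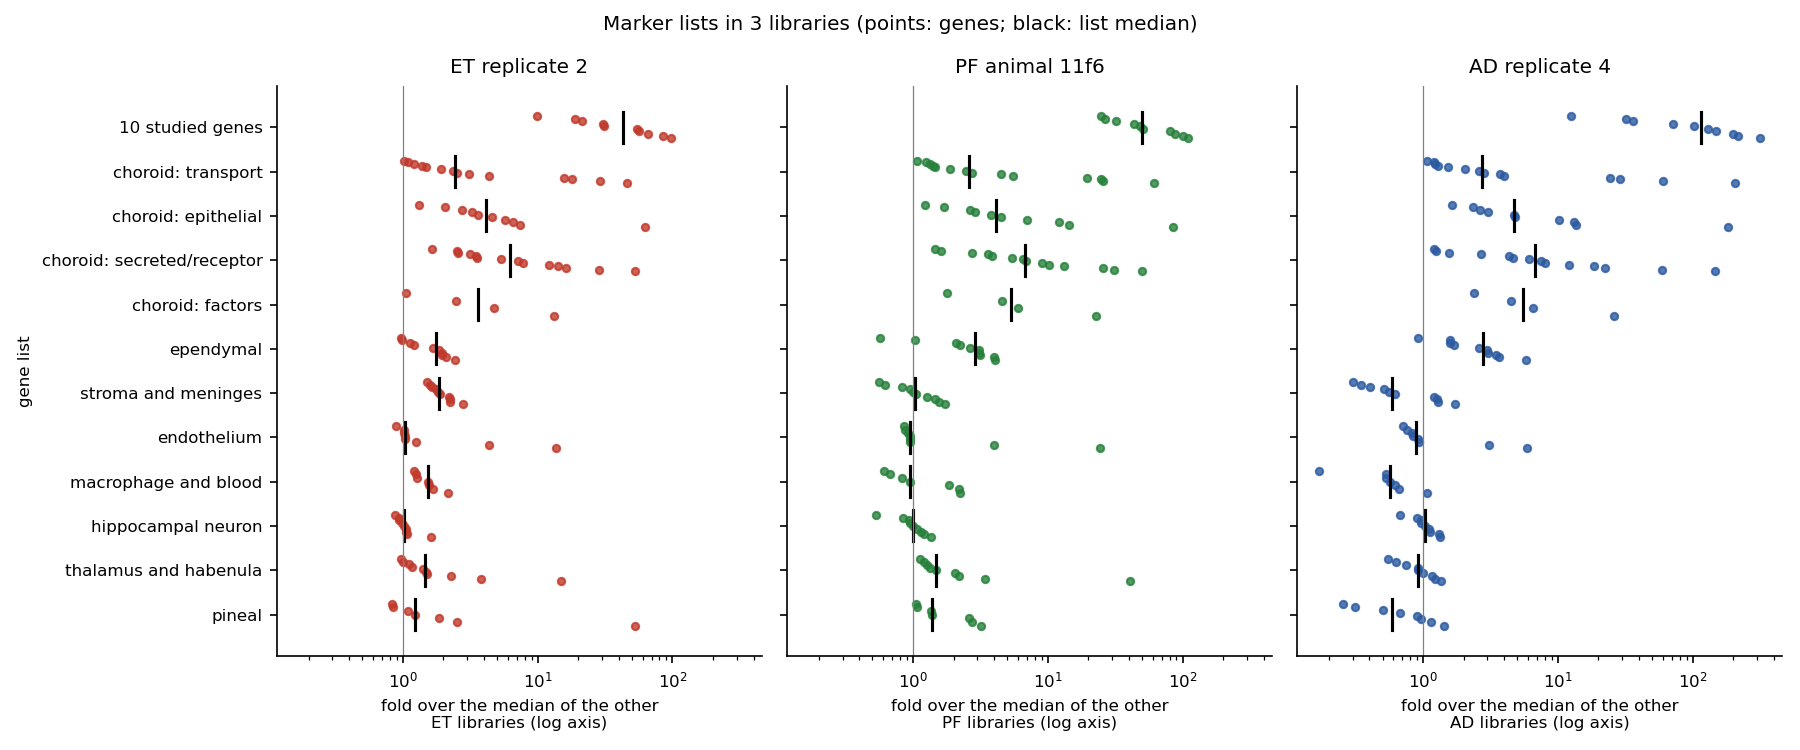
Fold (log axis) of each list gene in the left-out library of each diet over the median of the other libraries of that diet, 1 point per gene, with the list median in black and genes at 0 in either not drawn. By list median the 10 genes sit furthest to the right, at 42.7, 49.9 and 116. Cldn2 of the other choroid plexus lists lies among them, at 62.1, 85.3 and 183. The other choroid plexus lists spread to the right of 1, and the hippocampal neuron list lies at 1.

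The genes whose pattern over the 17 libraries lay nearest to the 10 were found from the root mean square difference between centred log2(normalized count + 1) values and the median of the 10. They were Cldn2 (0.337), the organic anion carrier Slco1a5 (0.485), Cltrn (0.570), the coagulation factor F5 (0.590), the prolactin receptor Prlr (0.639), the potassium channel Kcnj13 (0.648), Prr32 (0.677) and LOC100911081 (0.765), and 5 of these 8 were on the list of 42. Among the 10 genes themselves the difference ran from 0.245 for Kl to 1.39 for Otx2, and its median over 15920 genes was 2.50. Cldn2 stood at 1292, 1507 and 1719 in the 3 left-out libraries, at 172 in ET replicate 1 and 206 in PF replicate 2, and at 2.24 to 36.1 in the other 12. Kcnj13 stood at 865, 954 and 1050.3 in the 3, and at 8.62 to 40.3 in the 12. F5 also ranged up to 182 in the 12, its highest value there being in AD replicate 6.

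The sequence before the start sites of the 10 genes is shown where it held a searched motif. RefSeq promoter windows (assembly GRCr8, 250 bases before to 50 after the start) were held for 6 of the 10 genes (Aqp1, Kl, Mfrp, Slc4a5, Tmem72 and Ttr). TAATCC, the core bound by OTX homeodomain proteins, TGTTTAC, a forkhead core, and TATAAA, the TATA box, were searched on both strands. TAATCC was in 1 of 6 windows and in 7.17% of all 33469, TATAAA in 1 of 6 and 14.2%, and TGTTTAC in 0 of 6 and 3.78%. The 250 bases before the start of Mfrp (chr8:53342284-53342533, plus strand) and of Aqp1 (chr4:85812534-85812783, plus strand) are given below 5′ to 3′, with capitals for TAATCC read on the minus strand, starting 99 bases before the start of Mfrp, and for TATAAA on the plus strand, 30 bases before the start of Aqp1.
Mfrp: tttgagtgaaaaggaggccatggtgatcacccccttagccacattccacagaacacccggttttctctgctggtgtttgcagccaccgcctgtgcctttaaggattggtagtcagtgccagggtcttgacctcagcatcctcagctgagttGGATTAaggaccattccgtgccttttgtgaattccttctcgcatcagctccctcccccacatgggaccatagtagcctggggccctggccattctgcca
Aqp1: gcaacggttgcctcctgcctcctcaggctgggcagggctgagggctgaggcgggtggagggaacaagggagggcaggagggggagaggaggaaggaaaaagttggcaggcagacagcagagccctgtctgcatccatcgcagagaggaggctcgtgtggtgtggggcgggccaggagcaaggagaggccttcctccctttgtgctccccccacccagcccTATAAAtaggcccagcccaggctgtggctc
A match is a run of letters and was not tested as a binding site, and these windows are from another assembly than the one the reads were mapped to.

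Diets were compared in tests across all genes, with a gene called at an adjusted p under 0.01 and an absolute log2 fold change over 1.5 in edgeR's quasi-likelihood test. Between ET and PF 0 of 10 were called in either direction, where 0.0373% of 16088 genes were called higher and 2.14% lower in ET. Mean Ttr was 20939 ± 37666 normalized counts (SD, n = 5) in ET and 19860.3 ± 39765 (SD, n = 6) in PF, and the log2 fold change was 0.08 (SE 1.58). The median log2 fold change of the 10 was 0.05, from -0.19 for Kl to 0.30 for Folr1, 6 of 10 were positive, the smallest adjusted p was 0.954, and 0 had an unadjusted p under 0.05. The standard deviation of Ttr exceeded its mean in both diets, also without the left-out libraries (4276 ± 6369 in ET, n = 4, and 3779 ± 6085 in PF, n = 5), and the sign of the fold changed with the libraries present. Without ET replicate 2 the median was -2.26 and 10 of 10 were negative, and without PF animal 11f6 it was 2.26 and 10 of 10 were positive. Without each of the other PF libraries in turn it lay between -0.21 and -0.04, and without each of the other ET libraries between 0.19 and 0.34. With the left-out library of each diet set aside the median was 0.07, from -0.73 for Tmem72 to 0.64 for Otx2 (smallest adjusted p 0.795), with 0 of 10 called beside 0.0373% of all genes higher and 2.13% lower.

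Between ET and AD 0 of 10 were called, where 0.0% of 15700 genes were called higher and 0.0127% lower in ET. Mean Ttr in AD was 19258 ± 45580.1 (SD, n = 6), and the log2 fold change of ET over AD was 0.11 (SE 1.82). The median over the 10 was 0.12, from -0.66 for Otx2 to 0.44 for Sostdc1, and 0 had an unadjusted p under 0.05. Without ET replicate 2 it was -2.12, and without AD replicate 4 it was 3.31 over the 9 genes then tested, of which 7 had an unadjusted p under 0.05 (4.49% of all genes) and 0 were called. Without each of the other AD libraries in turn it lay between -0.13 and -0.07. With both set aside, mean Ttr was 4276 ± 6369 in ET (SD, n = 4) and 652 ± 707 in AD (SD, n = 5), and the log2 fold change of Ttr was 2.72 (SE 1.10, unadjusted p = 0.0323, edgeR adjusted p = 1.000). Over the 9 genes then tested (Sostdc1 fell under the filter on low counts) the median was 1.33, 8 were positive, 4 had an unadjusted p under 0.05 (2.74% of all genes) and 0 were called, beside 0.0% of all genes higher and 0.0127% lower. Otx2 was the exception at -1.40 (SE 1.11), and with AD replicate 6, where pineal genes were high, also set aside it was 0.90 (SE 0.57) and 10 of 10 were positive, 5 with an unadjusted p under 0.05 (3.67% of all genes).

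Between PF and AD 0 of 10 were called, where 1.99% of 15902 genes were called higher and 0.0314% lower in PF. This comparison shares its AD libraries with the last and its PF libraries with the first. The median log2 fold change was 0.08, from -0.69 for Otx2 (SE 1.14, edgeR adjusted p = 0.839) to 0.30 for Sostdc1, with Ttr at 0.03 (SE 1.76), and 0 had an unadjusted p under 0.05. Without PF animal 11f6 the median was -2.08, and without AD replicate 4 it was 3.82, where 8 had an unadjusted p under 0.05 (18.6% of all genes) and 0 were called. Without each of the other AD libraries in turn it lay between -0.19 and -0.09. With both set aside 9 genes were tested (Tmem72 was not), with a median of 1.29, Ttr at 2.55 (SE 1.11), Sostdc1 at 2.68 (SE 1.08) and Otx2 at -2.03 (SE 1.11). Of these 4 had an unadjusted p under 0.05 (16.4% of all genes), the smallest adjusted p was 0.224, and 0 were called, where 2.02% of all genes were called higher and 0.0251% lower. With AD replicate 6 also set aside Otx2 was 0.27 (SE 0.73). The median over the 10 genes was then 2.08 with 10 of 10 positive. Of them 0 were called, where 353 of 16059 genes were called higher and 5 lower.

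Between males and females the 10 genes pointed 1 way with all libraries and the other way without the left-out ones. In ET (3 males, 2 females) the median log2 fold change of males over females was 2.07, from 1.48 for Otx2 to 3.02 for Tmem72, 10 of 10 were positive and 0 were called, where 0.0251% of 15924 genes were called higher in males and 0.0% lower. In PF (3 males, 3 females) it was 2.52, from 2.12 for Slc4a5 to 2.85 for Mfrp, 10 of 10 were positive and 0 were called, where 0.0248% of 16105 were called higher and 0.00621% lower. The left-out library of both diets was from a male, and the next highest, ET replicate 1 and PF replicate 2, were from females. Without the left-out libraries the median was -1.69 in ET and -1.63 in PF with 10 of 10 negative in each, and 0 were called, beside 0.0% of all genes higher and 0.0% lower in ET and 0.0246% and 0.0123% in PF. The smallest adjusted p among the 10 was 1.00 with all libraries in either diet, and 3 in ET and 0 in PF had an unadjusted p under 0.05 without the left-out ones (0.796% and 4.07% of all genes).

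Among the 42 other choroid plexus genes, 0 were called in either direction in any of the 5 comparisons. Of them 39 were tested between ET and PF (26 positive, median log2 fold change 0.03), 37 between ET and AD (26 positive, 0.12) and 35 between PF and AD (22 positive, 0.08). Between the sexes 40 were tested in ET (38 positive, 0.96) and 36 in PF (33 positive, 0.85). An unadjusted p under 0.05 was found for 2, 0, 0, 2 and 0 of them, beside 14.4%, 4.57%, 17.3%, 1.33% and 1.81% of all genes in the same order. Without the left-out libraries 0 were called either, and between the sexes 18 of 38 were positive in ET (median -0.05) and 4 of 37 in PF (-0.37). Between the diets 18 of 36 were then positive for ET over PF, 28 of 36 for ET over AD (0.17) and 22 of 35 for PF over AD (0.17). An unadjusted p under 0.05 was then found for 4 between ET and PF, 3 between ET and AD, 10 between PF and AD, 3 between the sexes in ET and 2 in PF, beside 11.9%, 2.74%, 16.4%, 0.796% and 4.07% of all genes.

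**Figure D4:**
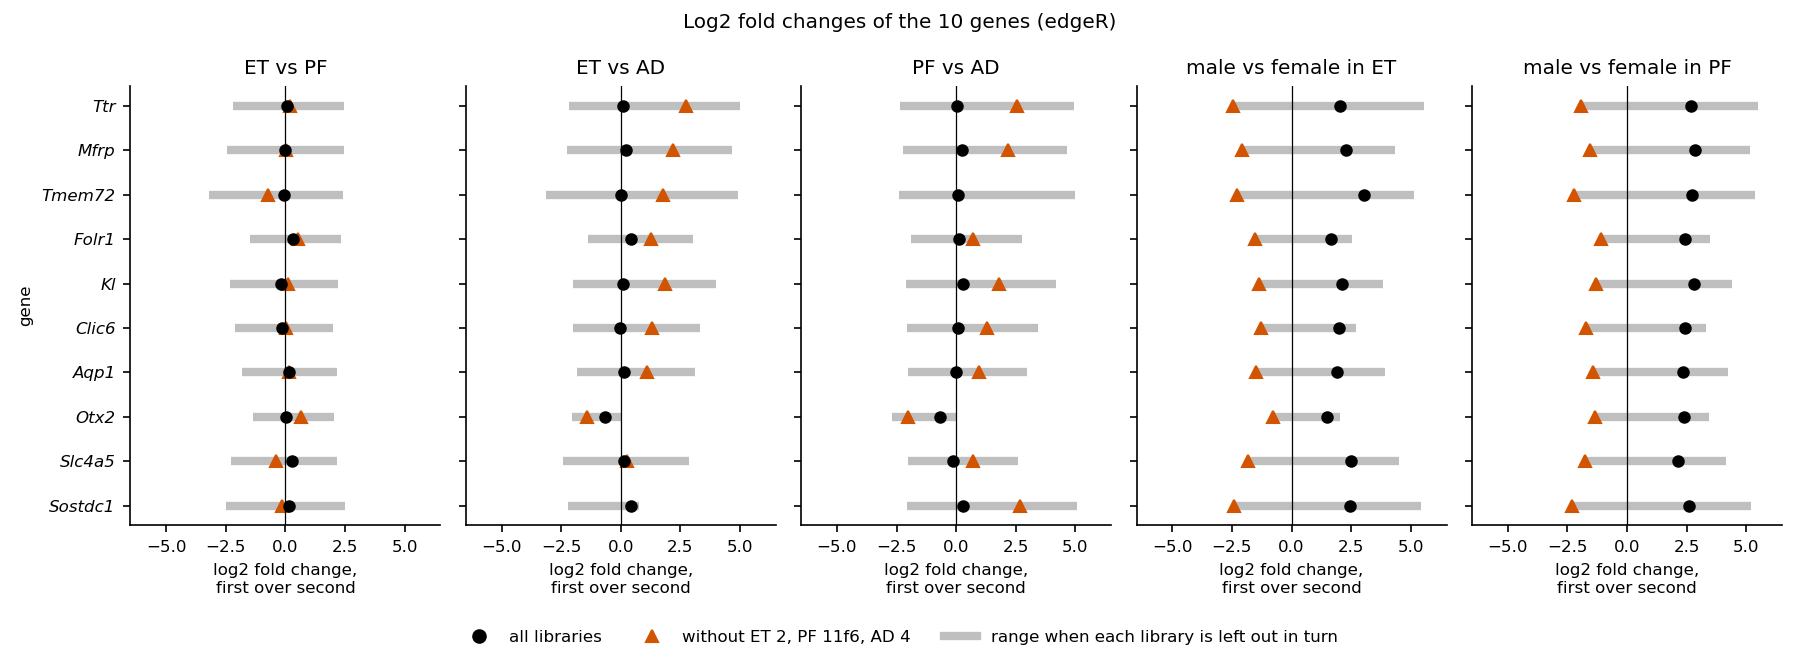
Log2 fold change (first group over second) of each of the 10 genes in 5 comparisons, with all libraries (black points), without ET replicate 2, PF animal 11f6 and AD replicate 4 (orange triangles) and as the range over fits that each leave out 1 library (grey bars). Black points lie between -0.69 and 0.44 in the 3 diet comparisons and between 1.48 and 3.02 in the comparisons of the sexes, the grey bars cross 0 except those of Otx2 in ET vs AD and PF vs AD, and the triangles lie on the other side of 0 in both comparisons of the sexes.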

How the data were processed

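RNA was measured by stranded paired-end mRNA sequencing of 1 hippocampus from each of 17 rats. Reads were trimmed by the authors (fastp), aligned by Bowtie2 2.4.2 to mRatBN7.2, and counted as fragments on exons (featureCounts 2.0.1) at a minimum mapping quality of 10, with a fragment allowed to count for several features. The strand setting of the counting is not given in the sources used here. The deposited values are expected counts in form, the mean of 3 technical replicates per gene and library, not normalized and not always whole, and 0 columns of per-sample values were left unused. A gene shared by overlapping annotations can gain fragments from its neighbour, and longer genes collect more. The rank of a gene within a list is therefore one of counts and not of expression per length.

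The 10 genes, the marker lists and the tests were chosen with earlier results of these data known. Libraries were grouped by the diet in their titles and named by replicate, or by animal for 11f5 and 11f6. Counts were rounded, filtered with filterByExpr and scaled by TMM, and each pair of groups was fitted by itself in edgeR 4.0.16 (R 4.3.3, quasi-likelihood) with Benjamini-Hochberg adjustment over all genes tested. A gene was called at an adjusted p under 0.01 and an absolute log2 fold change over 1.5. The pattern search used a pseudocount of 1, and ratios to Ttr have exact binomial intervals. Patterns were computed with Python 3.11.15, pandas 2.3.3 and scipy 1.17.1. The tests were tried on simulated counts with known changes. The text names all 10 genes, the 4 most abundant genes of each list and the 8 genes with the most similar pattern, and Plvap, Esm1, Spink8, Crx, Gngt1, Bsx, Gbx2, Sntn and C1qtnf5 were named after their values were seen. Alternatives were DESeq2 1.42.0, median-of-ratios scaling, no filter, an absolute fold change over 1.5, sums of technical replicates, 1 fit of the 3 diets, sex as a covariate, the replicate number as a block, leaving out each library in turn and leaving out the 3 libraries the study set aside. Leaving out AD replicate 6 with those 3, and fitting the numbered libraries with no block, were added after seeing the data. Symbols were matched to RefSeq genes of GRCr8 for 27234 of 34322, and for 10 of the 10 genes. Apart from the promoter windows, no genome sequence was used here.

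The labels do not say that the replicate numbers pair the animals of different diets. The correlation of the deviations of same-numbered libraries from their group means averaged 0.20 over 3 ET and PF pairs (-0.08 to 0.63), -0.11 over 5 ET and AD pairs and 0.07 over 4 PF and AD pairs. Differently numbered pairs averaged -0.02 (27 ET and PF pairs, -0.48 to 0.74), 0.04 (25 ET and AD pairs) and -0.0005 (32 PF and AD pairs). So few same-numbered pairs cannot settle whether the numbers carry a pairing.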

Additional observations from a re-analysis of the deposited data

Results flagged for a closer look

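The 10 genes were chosen for these levels, so the values here repeat that choice as a description and are no test of it. In each diet, the gap between the highest library and the next one, divided by the range of the diet, was set against the 95% critical value of Dixon's test (0.71 for 5 libraries, 0.625 for 6). The gap lay above that value in 29 of 30 combinations of gene and diet, with the left-out library as the highest in each. The 1 in 20 of that critical value is for normally distributed values in groups not chosen by level, so it gives no measure here. The 30 combinations are also not separate cases, since the 10 genes move together in the same libraries.

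In ET replicate 2 the normalized counts with such a gap were 87591 for Ttr, 2096 for Kl, 1301 for Sostdc1, 846 for Folr1, 1215 for Aqp1, 2230.2 for Slc4a5, 1360.2 for Clic6, 2300.4 for Mfrp, 1174 for Tmem72 and 272 for Otx2. In PF animal 11f6 they were 100267 for Ttr, 2947 for Kl, 1348 for Sostdc1, 843 for Folr1, 1295 for Aqp1, 1957 for Slc4a5, 1798 for Clic6, 2747 for Mfrp, 1348 for Tmem72 and 358 for Otx2. In AD replicate 4 they were 112289 for Ttr, 2677 for Kl, 1264 for Sostdc1, 844 for Folr1, 1466 for Aqp1, 2396 for Slc4a5, 1891 for Clic6, 2650.2 for Mfrp and 1474 for Tmem72. Otx2 in AD had no such gap, with 335 in replicate 4 and 325 in replicate 6.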

How the results depend on the processing

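None of the 10 genes was called in the 5 comparisons under any alternative run except 1. With the replicate number as a block, between PF and AD, 1 gene was called, Sostdc1 (log2 fold change 3.75, edgeR adjusted p = 0.00265), where 1.77% of 16068 genes were called higher, and Otx2 between ET and AD turned to 0.64. Between ET and PF the block moved the median of the 10 from 0.05 to 2.26, with 10 of 10 positive, 9 at an unadjusted p under 0.05 (11.2% of all genes) and a smallest edgeR adjusted p of 0.0223, while the same numbered libraries with no block gave 2.03 with 0 under 0.05. The labels do not say that the numbers pair the animals, and that fit leaves out PF animals 11f5 and 11f6, which carry none. In the same numbered libraries with no block, Ttr between PF and AD was -2.05. Without the 3 left-out libraries males over females turned to -2.44 for Ttr and -0.80 for Otx2 in ET, and to -1.93 and -1.35 in PF. With AD replicate 6 also left out, Otx2 was 0.90 between ET and AD and 0.27 between PF and AD. Leaving out each library in turn moved the log2 fold change of Ttr over -2.22 to 2.47 between ET and PF, -2.19 to 5.02 between ET and AD, -2.36 to 4.95 between PF and AD, -2.44 to 5.56 between the sexes in ET and -1.93 to 5.49 in PF. That of Otx2 moved over -1.37 to 2.04, -2.06 to -0.01, -2.69 to -0.02, -0.80 to 2.02 and -1.35 to 3.44. DESeq2 gave no adjusted p for 10, 9, 9, 5 and 10 of the 10 genes in the same order of comparisons, and 0 of the others were called. With all libraries, 0 of the 10 genes had an unadjusted p under 0.05 in each comparison by edgeR. The count by DESeq2 was also 0, but genes to which DESeq2 gave no p were left out of that count. For such genes it is no second result. Under other alternatives some did, namely 7 between PF and AD with the block (18.0% of all genes), 7 between ET and AD (4.49%) and 8 between PF and AD (18.6%) without AD replicate 4, 2 between ET and PF (2241 of 15971 genes) and 1 between PF and AD (15.9%) without PF animal 11f6, 3 between the sexes in ET without ET replicate 2 (0.796%) and 4 in PF without PF animal 11f5 (2.72%). Without the 3 left-out libraries there were 4 between ET and AD (2.74%) and 4 between PF and AD (16.4%), and 5 (3.67%) and 2 (15.7%) with AD replicate 6 also left out. The depth limits the low libraries most, where Tmem72, Otx2, Sostdc1 and Clic6 rest on 3 counts or fewer in AD replicate 1, and 3 counts were taken as the floor.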

Other observations

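Of the 42 other choroid plexus genes, the potassium channel subunit gene Kcne2, F5, the keratin gene Krt18 and the collagen gene Col8a1 were also high in AD replicate 6. They stood there at 157, 182, 11.6 and 300.3 normalized counts, against at most 30.8, 76.4, 4.45 and 21.9 in AD replicates 1, 2, 3 and 5. They were singled out after their values were seen.

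C1qtnf5 lies 57 bases from Mfrp in GRCr8 and was also looked up after the values of Mfrp were seen. It stood at 410 normalized counts in ET replicate 2, 399 in PF animal 11f6 and 386 in AD replicate 4, and between 214 and 272 in the other 14 libraries. Slc4a5 overlaps the long noncoding RNA LOC134486596 in GRCr8, which is not a row of the count table. Whether fragments of either neighbour were counted for Mfrp or Slc4a5 was not tested.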
